A study of Mus musculus with 4 samples.

Results

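The microRNA (miRNA) families miR-26 and miR-103/miR-107 were followed across 4 small RNA libraries of sorted mouse macrophages. They were taken by name as mmu-miR-26a-5p, mmu-miR-26b-5p, mmu-miR-103-3p and mmu-miR-107-3p, and all 4 had a row among the 847 rows of the count table. The libraries came from AML spleen, normal spleen, AML bone marrow (BM) and normal BM, with 1 library for each. The AML mice were C57BL/6J animals that had received GFP+ MLL-AF9 leukaemia cells, with no irradiation, and whose macrophages were sorted on day 18. MLL-AF9 is a fusion of a histone methyltransferase gene that drives acute myeloid leukaemia (AML). The normal mice were of the same strain, and mice were 6 to 8 weeks old per the labels. The sources used here do not give the sort markers, the number of mice behind a library or whether spleen and BM came from the same mice. The stated purpose was to compare the miRNAs of leukaemia-associated macrophages with those at homeostasis.

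A miRNA represses messenger RNAs that pair with its seed, the stretch of bases near its 5′ end, so miRNAs with the same seed are grouped as a family. The miR-26 family is broadly expressed, represses the histone methyltransferase gene Ezh2 and dampens glucose and lipid synthesis in mouse liver. The miR-103/miR-107 family lies in genes for pantothenate kinases, the enzymes that start coenzyme A synthesis, and lowers insulin sensitivity in mouse liver and fat. The Ctdsp genes that carry miR-26 encode small phosphatases that act on the C-terminal domain of RNA polymerase II and on the retinoblastoma protein.

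The mature sequences are shown because they set which reads can be told apart. They are RefSeq sequences on the build GRCm38.p6, with the seed (bases 2 to 8) in capitals, and all 4 names were matched.
miR-26a-5p: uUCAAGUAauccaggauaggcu
miR-26b-5p: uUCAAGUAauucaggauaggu
miR-103-3p: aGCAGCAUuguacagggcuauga
miR-107-3p: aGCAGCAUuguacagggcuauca

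The miR-26 pair shares the seed UCAAGUA and the miR-103/miR-107 pair the seed GCAGCAU. Of 1679 mature mouse names in the RefSeq table, 2 have the miR-26 seed and 2 the miR-103/miR-107 seed, which are these members. Counted from the 5′ end, miR-26a-5p and miR-26b-5p differ by C11U and C21U, and miR-26a-5p has 22 bases against 21. Between miR-103-3p and miR-107-3p the only difference is G22C, at base 22 of 23. A read that ends before that base cannot be given to either row, and how such reads were counted is not given in the sources used here. No other row of the table matched the counts of a member within 3% or 2 counts in all 4 libraries.

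Each mature sequence was placed on its hairpins in GRCm38. The sequence of miR-26a-5p is made from 2 hairpins, at chr9:119031796-119031885 on the plus strand in an intron of Ctdspl and at chr10:126995530-126995613 on the plus strand in Ctdsp2. The Ctdsp2 hairpin overlaps exons of 2 annotated transcripts, 1 of them coding and the other a retained intron. The hairpin of miR-26b lies at chr1:74394310-74394394 on the plus strand in an intron of Ctdsp1. That of miR-103-3p is also doubled, at chr11:35782396-35782481 in an intron of Pank3 and at chr2:131288052-131288137 in an intron of Pank2, both on the plus strand. The hairpin of miR-107 lies at chr19:34820687-34820773 on the minus strand in an intron of Pank1. Every hairpin lies on the strand of its host gene. Since both loci give the same mature sequence, the counts of miR-26a-5p and of miR-103-3p cannot be split by locus.

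The libraries held between 180227 and 435492 counts, with 505 to 680 rows detected. Levels below are counts per 1000000 (CPM) of the library after TMM scaling, which corrects totals for a few dominant miRNAs. A read spans a whole miRNA, so no length enters. Brackets give 95% exact intervals, which cover counting error only, since there is 1 library per group and thus no replicate check and no test over replicates. A miRNA was called different between 2 libraries when the scaled counts differed at least 2-fold, the interval of the ratio excluded no change and the larger count was at least 30. In each library fewer cells of a type and less of the miRNA per cell cannot be told apart. The miRNAs listed as myeloid markers, both arms of miR-223 and of miR-142a, were detected in all 4 libraries, but miR-223-3p had no more than 28 counts in any. In normal spleen, miR-142a-3p and miR-142a-5p had 1704 and 1047 of the list's counts, against 28 and 36 for miR-223-3p and miR-223-5p. Whether the sum of this list follows macrophage content was not tested. The 4 miRNAs together took 0.266% of reads in AML spleen against 0.646% in normal spleen, and 0.186% in AML BM against 0.0726% in normal BM. They did not move alike. Both miR-142a arms and the sparse miR-223-3p were highest in normal spleen, with 4346 CPM for miR-142a-3p and 2670 CPM for miR-142a-5p. By contrast, miR-223-5p was highest in AML BM, at 531 CPM against 91.8 CPM in normal spleen.

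The abundant member, miR-26a-5p, stood at nearly the same level in every library, while miR-26b-5p stood far above its other levels in normal spleen. The pair miR-103-3p and miR-107-3p stayed within 2-fold throughout. In AML spleen 1 of the 4 members was called against normal spleen, where 46.3% of all miRNAs compared were called. In AML BM 0 of 4 were called against normal BM, where the background was 25.5%.

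Macrophages of AML spleen had 3729 counts of miR-26a-5p, or 19327.5 CPM [18712 to 19958], and those of normal spleen 9406 counts, or 23989 CPM [23507 to 24479]. In AML BM it had 5775 counts, or 20595 CPM [20068 to 21134], and in normal BM 4371 counts, or 21078 CPM [20458 to 21712]. The levels thus ran from normal spleen through normal BM and AML BM to AML spleen, and the neighbours normal BM and AML BM did not differ beyond counting error. That order depended on the scaling: AML spleen had a log2 ratio of -0.13 [-0.19 to -0.06] to normal BM here and 0.14 [0.08 to 0.21] on totals without the 10 most abundant miRNAs. By count it ranked 12th in AML spleen, normal spleen and AML BM, and 17th in normal BM. As a plain share of reads it made up 2.07% of AML spleen, 2.16% of normal spleen, 2.13% of AML BM and 2.12% of normal BM.

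For its paralogue miR-26b-5p, AML spleen had 359 counts, or 1861 CPM [1673 to 2063], against 2308 counts, or 5886 CPM [5649 to 6132], in normal spleen. In AML BM it had 551 counts, or 1965 CPM [1804 to 2136], against 551 counts, or 2657 CPM [2440 to 2888], in normal BM. Normal spleen was high and the other 3 libraries lay close together. In the order normal spleen, normal BM, AML BM and AML spleen, only the neighbours AML BM and AML spleen did not differ beyond counting error, which held under the 4 scalings tried.

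For miR-103-3p, AML spleen had 296 counts, or 1534 CPM [1364 to 1719], and normal spleen 719 counts, or 1834 CPM [1702 to 1973]. In AML BM it had 492 counts, or 1755 CPM [1603 to 1917], and in normal BM 400 counts, or 1929 CPM [1744 to 2127]. Ordered as normal BM, then normal spleen, then AML BM, then AML spleen, no library differed from its neighbour beyond counting error with this scaling. With DESeq2 size factors the log2 ratio was -0.23 [-0.44 to -0.02] for AML spleen against AML BM and -0.27 [-0.44 to -0.10] for AML BM against normal spleen. On total counts it was -0.23 [-0.41 to -0.05] for normal spleen against normal BM. AML spleen was lower than both normal libraries with this scaling. Against normal spleen that ended on total counts (log2 ratio -0.0076 [-0.21 to 0.19]) and without the 10 most abundant (-0.17 [-0.37 to 0.02]). Against normal BM it ended without the 10 most abundant (-0.06 [-0.28 to 0.16]).

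The least abundant member, miR-107-3p, had 76 counts in AML spleen, or 394 CPM [310.4 to 493], and 157 counts in normal spleen, or 400.4 CPM [340.2 to 468]. In AML BM it had 159 counts, or 567 CPM [482 to 662], and in normal BM 86 counts, or 415 CPM [332 to 512]. AML BM was high and the other 3 libraries did not differ from each other beyond counting error. With DESeq2 size factors the log2 ratio of AML BM to normal spleen was 0.30 [-0.03 to 0.62], which no longer excludes 0.

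**Figure D1:**
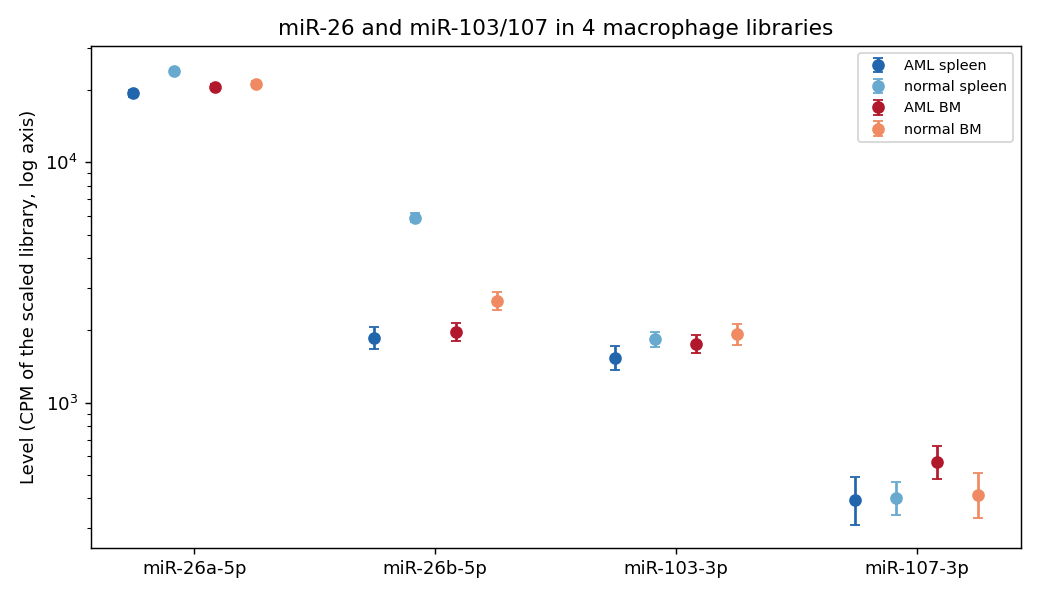
Level of each member in CPM of the scaled library (log axis) in AML spleen, normal spleen, AML BM and normal BM, with 95% exact Poisson intervals as bars, 1 library a point. The miR-26b-5p point of normal spleen, at 5886 CPM, stands above the other 3, which lie between 1861 and 2657 CPM.

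In macrophages of AML spleen against normal spleen, miR-26b-5p was lower, with a log2 ratio of -1.66 [-1.83 to -1.5005], or 3.16-fold. Of 216 miRNAs compared, 46.3% were called in either direction and 21.3% were called lower, so 1 member called lower of 4 is close to the background. The log2 ratio of miR-26b-5p was above those of 8.33% of the miRNAs compared. The other 3 members were not called. Their log2 ratios were -0.31 [-0.37 to -0.26] for miR-26a-5p, -0.26 [-0.46 to -0.06] for miR-103-3p and -0.02 [-0.44 to 0.38] for miR-107-3p. The median of the members was -0.28 and that of all miRNAs compared was -0.25. Under the other scalings the ratio of miR-26b-5p lay between -1.90 and -1.41 and kept its call. That of miR-107-3p turned positive under 2 of the 3, reaching 0.23.

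In macrophages of AML BM against normal BM no member was called, where 25.5% of 216 miRNAs compared were. The log2 ratio of miR-26a-5p was -0.03 [-0.09 to 0.02], and 5 of the 216 had a ratio nearer 0. The sign of this value turned under 2 of the 3 other scalings, with 0.16 as the highest. For miR-26b-5p the log2 ratio was -0.44 [-0.61 to -0.26], in the same direction as in spleen and under each scaling tried. For miR-103-3p it was -0.14 [-0.33 to 0.06], which turned to 0.06 when the 10 most abundant miRNAs were left out of the totals, and for miR-107-3p it was 0.45 [0.06 to 0.85]. The median of the members was -0.09 beside 0.00 for all miRNAs compared.

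The AML ratio of the spleen minus that of the BM was -1.23 [-1.46 to -0.99] on the log2 scale for miR-26b-5p. For miR-26a-5p this gap was -0.28 [-0.36 to -0.20], for miR-107-3p -0.47 [-1.02 to 0.07] and for miR-103-3p -0.12 [-0.39 to 0.15]. These intervals are normal approximations from the 4 counts and cover counting error alone. The gap of miR-26b-5p was the widest of the 4 and lay between -1.49 and -1.02 under the other scalings, with 0 outside each interval. The other gaps depended on the scaling. With DESeq2 size factors they were -0.55 [-0.63 to -0.47] for miR-26a-5p, -0.39 [-0.66 to -0.12] for miR-103-3p and -0.74 [-1.29 to -0.20] for miR-107-3p, all clear of 0. On total counts they were -0.07 [-0.15 to 0.0072], 0.09 [-0.19 to 0.36] and -0.27 [-0.82 to 0.28] in the same order of members, and none was clear of 0.

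Between the tissues at homeostasis, miR-26b-5p was higher in normal spleen than in normal BM, with a log2 ratio of 1.15 [1.01 to 1.28], or 2.22-fold. Of 234 miRNAs compared, 66.2% were called either way and 30.8% were called higher, so 1 member called higher of 4 is close to the background of that direction. The value lay close to the 2-fold limit, and on total counts it was 0.99 and no longer called. The remaining members had log2 ratios of 0.19 [0.13 to 0.24] for miR-26a-5p, -0.07 [-0.25 to 0.11] for miR-103-3p and -0.05 [-0.44 to 0.35] for miR-107-3p. The signs of the miR-103-3p and miR-107-3p values each turned under 2 of the 3 other scalings. The median was 0.07 over the members and 0.19 over all miRNAs compared.

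Between AML spleen and AML BM no member was called, where 35.1% of 211 miRNAs compared were. The log2 ratios were -0.09 [-0.15 to -0.03] for miR-26a-5p, -0.08 [-0.27 to 0.12] for miR-26b-5p, -0.19 [-0.41 to 0.02] for miR-103-3p and -0.53 [-0.94 to -0.12] for miR-107-3p. For miR-26b-5p this interval lies below that of normal spleen against normal BM, 1.15 [1.01 to 1.28]. That contrast restates the spleen minus BM gap of -1.23 given above and is no separate observation. The median was -0.14 over the members and -0.12 over all. The comparisons share libraries in pairs: normal spleen and normal BM each enter 2 of them, as do AML spleen and AML BM.

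**Figure D2:**
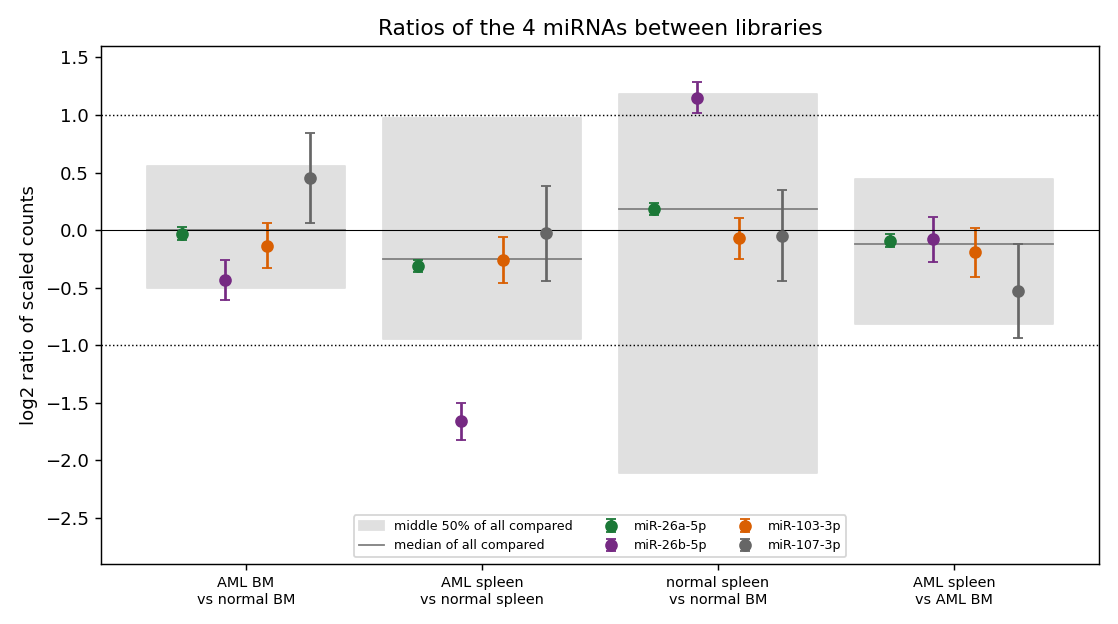
Log2 ratio of scaled counts of each member in the 4 comparisons, with 95% exact conditional intervals as bars; grey bands span the interquartile range of all miRNAs compared, grey lines their medians, and dotted lines 2-fold. The 2 points of miR-26b-5p beyond the dotted lines lie at -1.66 (AML spleen vs normal spleen) and 1.15 (normal spleen vs normal BM).

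Fitted over all 4 libraries with tissue as a term, which leaves 1 residual degree of freedom, edgeR's quasi-likelihood test called 0 of 4 members for AML against normal. The same fit called 0% of 246 miRNAs, 0 had an unadjusted p under 0.05, and DESeq2 gave 0 on both counts too. The Benjamini-Hochberg adjusted p was 0.998 for each member in edgeR, with a log2 effect of -1.05 for miR-26b-5p. For spleen against BM, edgeR called 0 of 4 members and 0% of 246 miRNAs, with 15 at an unadjusted p under 0.05. DESeq2 called 4 higher and 4 lower, none of them a member. The edgeR adjusted p of the members for spleen against BM ran from 0.856 to 0.971. A difference of the AML effect between tissues counts as noise in this fit, and its p-values speak only of how these libraries vary.

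The balance within each family needs no scaling, since both paralogues come from the same library. Reads of miR-26b-5p made up 8.78% of the miR-26 reads in AML spleen (Wilson 95% interval 7.95% to 9.69%) and 19.7% in normal spleen (19.0% to 20.4%). They made up 8.71% in AML BM (8.04% to 9.43%) and 11.2% in normal BM (10.3% to 12.1%). The odds of miR-26b-5p over miR-26a-5p in AML spleen were 0.392 times those of normal spleen [0.348 to 0.442], and in AML BM 0.757 times those of normal BM [0.667 to 0.859]. Normal spleen had 1.95 times the odds of normal BM [1.76 to 2.15]. The 2 AML libraries had shares that could not be told apart, with an odds ratio of 1.01 for AML spleen over AML BM [0.875 to 1.16].

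The share of miR-107-3p in the miR-103/miR-107 reads was 20.4% in AML spleen (16.6% to 24.8%) and 17.9% in normal spleen (15.5% to 20.6%). It was 24.4% in AML BM (21.3% to 27.9%) and 17.7% in normal BM (14.6% to 21.3%). The odds in AML BM were 1.503 times those of normal BM [1.11 to 2.04], and the odds in AML spleen 1.18 times those of normal spleen [0.853 to 1.61]. Only the BM interval lay clear of equal odds. The shares of miR-103-3p and miR-107-3p rest on the base at position 22, and how reads trimmed before that base entered them was not tested.

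**Figure D3:**
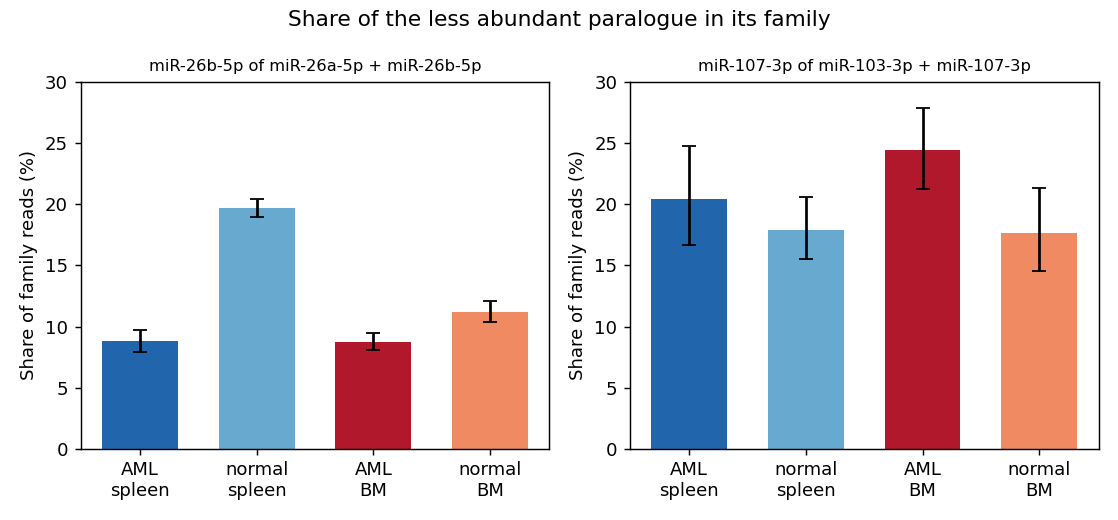
Share of miR-26b-5p in the summed reads of miR-26a-5p and miR-26b-5p, and of miR-107-3p in those of miR-103-3p and miR-107-3p, in percent by library, with Wilson 95% intervals. For miR-26b-5p normal spleen stands at 19.7% and the other 3 libraries between 8.71% and 11.2%; for miR-107-3p AML BM is highest at 24.4%.

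Summed by seed, the miR-26 family stood at 21188 CPM in AML spleen, against 29876 CPM in normal spleen. In BM it stood at 22560.3 CPM in AML and 23735 CPM in normal mice. The log2 ratio of the sum was -0.50 [-0.55 to -0.44] for AML spleen against normal spleen and -0.07 [-0.13 to -0.02] for AML BM against normal BM. The miR-103/miR-107 sum was 1928 CPM in AML spleen, 2234 CPM in normal spleen, and in BM it was 2322 CPM in AML and 2344 CPM in normal mice. Its log2 ratios were -0.21 [-0.39 to -0.04] in spleen and -0.01 [-0.19 to 0.16] in BM. On total counts these turned to 0.04 [-0.14 to 0.21] in spleen and 0.03 [-0.14 to 0.20] in BM. The spleen ratio of the miR-26 sum stayed below 0 under the 3 other scalings, between -0.73 and -0.25, while its BM ratio turned to 0.12 [0.07 to 0.18] on totals without the 10 most abundant miRNAs. Neither sum differed 2-fold between AML and normal in either tissue.

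The members other than miR-26b-5p varied little over the libraries. Of the miRNAs, 144 reached 30 counts in each of the libraries, and among them the gap between the highest and the lowest library had a median log2 value of 1.55. This gap came to 0.31 for miR-26a-5p, the 3rd smallest, 0.33 for miR-103-3p, the 4th, and 0.53 for miR-107-3p, the 14th. For miR-26b-5p it was 1.66, the 78th. On total counts miR-26a-5p had the smallest gap of the 144, at 0.06, and miR-103-3p the 2nd smallest, at 0.24. With DESeq2 size factors miR-26a-5p was 10th, at 0.55, and miR-103-3p 7th, at 0.50. The position of miR-26a-5p near the flat end thus held under the 4 scalings, while its gap depended on the scaling. Within a library, miR-26a-5p had 12.6 reads for each read of miR-103-3p in AML spleen [11.2 to 14.2] against 13.1 in normal spleen [12.1 to 14.1], and 11.7 in AML BM [10.7 to 12.9] against 10.9 in normal BM [9.86 to 12.1].

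**Figure D4:**
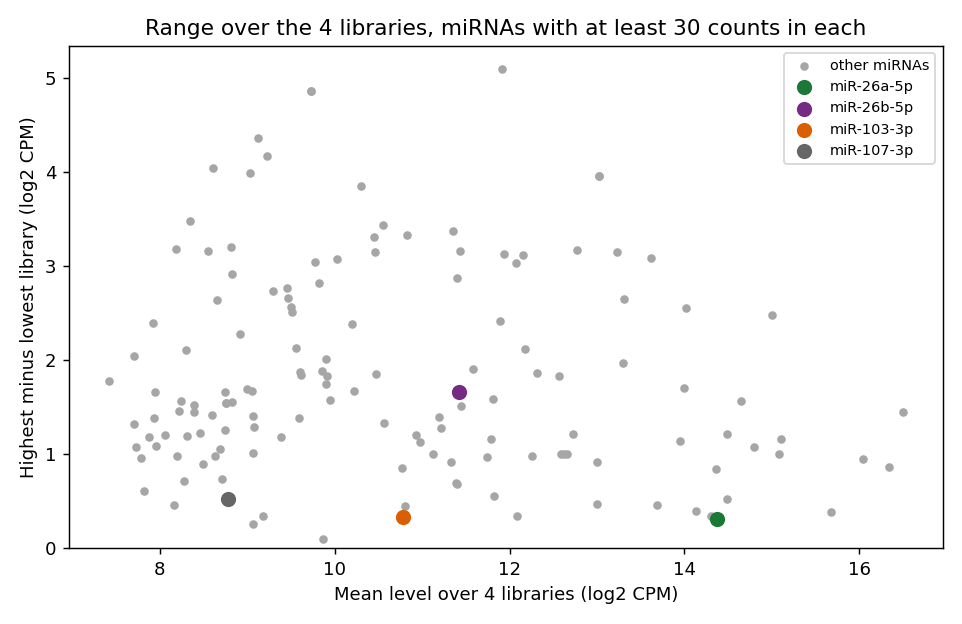
Gap between the highest and lowest library (log2 CPM) against the mean level over the 4 libraries (log2 CPM) for 144 miRNAs with at least 30 counts in each library. The points of miR-26a-5p, miR-103-3p and miR-107-3p lie at 0.31, 0.33 and 0.53, near the bottom, and miR-26b-5p at 1.66, near the median of 1.55.

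The miRNAs nearest in pattern were taken as the 3 with the smallest root mean square distance of log2 CPM, centred on the mean over the 4 libraries, out of 140 other miRNAs. For miR-26a-5p these were let-7g-5p (0.08), let-7f-5p (0.11) and miR-30d-5p (0.11). For miR-103-3p they were let-7f-5p (0.03), let-7g-5p (0.04) and miR-877-5p (0.13). For miR-26b-5p they were let-7a-5p (0.20), miR-29a-3p (0.28) and miR-92a-3p (0.32). For miR-107-3p they were miR-30e-3p (0.15), miR-24-3p (0.16) and miR-671-3p (0.16). The 2 miR-26 members lay 0.55 apart, and 66 of the 140 were nearer to miR-26a-5p than miR-26b-5p was. The distance between miR-26a-5p and miR-103-3p, of different seeds, was 0.10.

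The neighbour let-7a-5p, a let-7 miRNA that represses growth genes, had a log2 ratio of -1.13 [-1.18 to -1.07] for AML spleen against normal spleen and 0.95 [0.90 to 1.00] for normal spleen against normal BM. The neighbour miR-92a-3p, of the miR-17-92 cluster, had -1.45 and 1.15 in these comparisons. Normal spleen was the highest library for 52 of the 144 miRNAs, or 36.1%, among them both miR-26 members. It was the lowest library for 56.

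Marker lists of other cell types differed between the libraries, and their part in the level of miR-26b-5p was not tested. With 1 library per group, the shares of these lists are given as values only. Mixtures of cell types were not tested. All 5 lymphocyte markers were detected in each library and took 4.90% of reads in AML spleen against 9.45% in normal spleen, and 4.44% in AML BM against 1.69% in normal BM. Of these, 4 were called lower and 0 higher in AML spleen against normal spleen, while 0 were lower and 2 higher in AML BM against normal BM. All 9 stromal and endothelial markers were detected in each library, with 2.38% of reads in AML spleen against 0.330% in normal spleen, and 2.30% in AML BM against 3.23% in normal BM. Of 12 other-tissue markers (liver, muscle, epithelial and neural), 12 were detected in AML spleen with 2.55% of reads, against 11 with 0.477% in normal spleen. In AML BM 10 were detected with 2.40% of reads, against 11 with 5.67% in normal BM. The neural miR-124-3p was at 0 in normal spleen, AML BM and normal BM, and the epithelial miR-141-3p at 0 in AML BM. The 7 miRNAs listed as leukaemic blast and progenitor markers took 4.08% in AML spleen against 0.817% in normal spleen, and 4.34% in AML BM against 5.85% in normal BM. Of 6 compared between AML BM and normal BM, 0 were called higher. The share was thus highest in a normal library and does not measure blasts. They did not all move alike: of 6 compared between AML spleen and normal spleen, 4 were called higher, 1 lower and 1 neither. The lower one was miR-196b-5p, with a log2 ratio of -1.74 [-3.45 to -0.38] from 5 and 34 counts. The 5 erythroid markers together took between 1.41% and 1.67% in all libraries. Most reads of this list were miR-486a-5p and miR-486a-3p, with 1340 and 1304 counts in AML spleen and 3466 and 3361 in normal spleen. In AML BM they had 1779 and 1759, and in normal BM 913 and 889. Whether the same reads entered both rows was not tested. Within that list the red cell miRNA miR-451a had a log2 ratio of 1.96 for AML spleen against normal spleen, with 355 and 186 counts, and of -2.15 for AML BM against normal BM, with 323 and 1063 counts. By summed share of reads, normal spleen was highest for the lymphocyte list and lowest for the stromal, other-tissue, and blast and progenitor lists. Normal BM was lowest for the lymphocyte list and highest for the stromal, other-tissue, and blast and progenitor lists. Whether cell content sets the level of miR-26b-5p was not tested.

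The passenger arms of the hairpins, which are mostly degraded, were scarcely seen. Of 6 such arms 2 were analysed here. The arm miR-26a-2-3p, which belongs to the Ctdsp2 hairpin alone, was at 0 in AML spleen against 15 counts in normal spleen, and at 1 in AML BM against 0 in normal BM. It is shown beside the arm of the Ctdspl hairpin, not analysed here, with the bases that differ in capitals, since these arms tell the hairpins of miR-26a-5p apart.
miR-26a-1-3p: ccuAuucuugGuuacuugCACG
miR-26a-2-3p: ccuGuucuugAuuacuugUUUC

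For the arm miR-26b-3p there were 7 counts in AML spleen, 5 in normal spleen and 0 in both BM libraries. A count of 0 allows up to 3 counts, which is 15.5 CPM in AML spleen and, for the marrow, 10.7 CPM in AML and 14.5 CPM in normal mice. No passenger arm reached the 30 counts needed for a comparison.

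The miR-15/16 group carries the hexamer AGCAGC from base 2, whereas miR-103-3p and miR-107-3p carry it from base 1, so their seeds overlap with an offset of 1 base. Only 2 of 1679 mature names had it at base 1, and 11 had it at base 2. The members of the group listed here that had enough counts to be compared are printed with the seed in capitals.
miR-15b-5p: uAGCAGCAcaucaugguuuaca
miR-16-5p: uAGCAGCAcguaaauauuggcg

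Of 6 members of this group taken as a list, 2 had enough counts to be compared. The list left out miR-503-5p, which also carries the hexamer from base 2 and had enough counts in each library. Its gap between the highest and the lowest library was 1.18 on the log2 scale, and its ratios between libraries are not given here. In spleen, miR-15b-5p was lower in AML, at 482 CPM in AML spleen against 1423 CPM in normal spleen (log2 ratio -1.56 [-1.89 to -1.24]). In BM it was higher in AML, at 396 CPM in AML BM against 154 CPM in normal BM (log2 ratio 1.36 [0.78 to 1.97]). The ratio of miR-16-5p was -0.14 [-0.60 to 0.30] for AML spleen against normal spleen and -0.79 [-1.17 to -0.42] for AML BM against normal BM, and it was not called.

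A list of 25 further miRNAs with known roles in lipid and glucose metabolism had 13 members compared between AML spleen and normal spleen, of which 5 were higher, 0 lower and 8 neither, where 46.3% of all miRNAs compared were called. Its median log2 ratio was 0.19, beside -0.25 for all miRNAs compared. Higher were miR-96-5p at 2.76, from 30 counts in AML spleen and 9 in normal spleen, and miR-143-3p at 2.60, which is also a smooth muscle and stromal miRNA. Between AML BM and normal BM, 16 were compared, 0 were higher, 3 lower and 13 neither, where 25.5% of all were called, with a median of -0.45 beside 0.00. Lower were miR-375-3p, the islet and gut miRNA, at -2.05 [-2.93 to -1.23] and the liver miRNA miR-122-5p at -1.17 [-1.29 to -1.04]. Between normal spleen and normal BM, 2 of 15 were higher and 7 lower, where 66.2% of all were called. Between AML spleen and AML BM 3 of 15 were higher and 1 lower, where 35.1% of all were called. The members that moved thus include markers of liver, gut and stroma, which stand in the other lists as well.

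A list of 36 other miRNAs known as intronic had 34 that were analysed here. Of the 36, 29 were matched by name to RefSeq hairpins, and all 29 lay within an annotated gene on the same strand. Between AML spleen and normal spleen 5 of 27 were higher, 4 lower and 18 neither, beside 46.3% called over all, with a median log2 ratio of -0.14 beside -0.25. Between AML BM and normal BM 5 of 25 were higher, 1 lower and 19 neither, beside 25.5% called over all, with a median of 0.36 beside 0.00. In AML BM miR-139-5p, in the Pde2a gene, was higher at 1.70 [1.62 to 1.78], and miR-499-5p, in a heart muscle myosin gene, was lower at -1.92 [-2.88 to -1.04]. Between normal spleen and normal BM 10 of 28 were higher and 6 lower, beside 66.2% called over all. Between AML spleen and AML BM 4 of 26 were higher and 2 lower, beside 35.1%.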

How the data were processed

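Small RNA libraries from 4 samples of sorted macrophages were sequenced on an Illumina HiSeq instrument after RNeasy extraction, per the labels' protocols. The deposited table gives read counts per miRNA. The deposited TPM values, so named per the file headers, equalled the count per 1000000 counts of its library, with no length term, and were used for that check alone. The sources used here do not give the aligner, counting tool, build or miRNA annotation. Samples were grouped by title. Totals were scaled with TMM in edgeR 4.0.16 (R 4.3.3), with factors of 1.07, 0.900, 1.03 and 1.00 for AML spleen, normal spleen, AML BM and normal BM. Ratios carry 95% exact conditional (Clopper-Pearson) intervals, and calls needed 2-fold and 30 counts. The additive model used edgeR's quasi-likelihood test over 246 miRNAs that reached 30 counts in any library, with Benjamini-Hochberg adjustment, and DESeq2 1.42.0 as the alternative. The edgeR model was tested on simulated data, with less spread between libraries than it fitted in these data, and DESeq2 was not. Sequences and host genes came from RefSeq and GENCODE for GRCm38. Named beside the members were their other arms, the 3 nearest miRNAs and up to 2 extremes called in each direction of a list. Members and lists were chosen with earlier results of these data known. Intervals cover counting error only, since there is 1 library per group. Reads carried no molecular identifiers, so copies of the same molecule count separately and the intervals can be too narrow even for counting error.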

Additional observations from a re-analysis of the deposited data

How the results depend on the processing

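No paired analysis was possible because each group has 1 library, and leaving out a library of the additive model leaves no residual degree of freedom. DESeq2 size factors, total counts and totals without the 10 most abundant miRNAs moved all ratios together, by up to 0.25 on the log2 scale (AML spleen vs normal spleen, total counts). Of the members' calls, that of miR-26b-5p between normal spleen and normal BM ended on total counts (0.99), and no other call of a member changed under these 3 scalings. The members' median became 0.11 on totals without the 10 most abundant for AML BM vs normal BM. For AML spleen vs normal spleen it became -0.52 with DESeq2 and -0.035 on total counts. For normal spleen vs normal BM it became 0.30 with DESeq2 and 0.25 on totals without the 10 most abundant. The split of all calls was 54 higher and 46 lower for AML spleen vs normal spleen, 51 and 68 with DESeq2 and 64 and 36 on total counts. For AML BM vs normal BM it was 29 and 26, and 39 and 19 on totals without the 10 most abundant. Calls over all miRNAs numbered 119, 179, 259 and 141 with a minimum of 1 count, and 24, 64, 96 and 37 with a minimum of 100, in the order AML BM vs normal BM, AML spleen vs normal spleen, normal spleen vs normal BM and AML spleen vs AML BM. At 1.5-fold, AML BM vs normal BM had 96. No member was called in the additive model with DESeq2 or without a count minimum. The scalings of the range over libraries, of the family sums and of the spleen minus BM gap were chosen after seeing the data. Depth limits miR-107-3p most, with 76 to 159 counts.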
